A study of Mus musculus with 24 samples.

Results

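The comparison set wild-type (WT) mpkCCD cells given cpd1324, an agonist of the receptor GPR39, against WT mpkCCD cells given vehicle. Each group held 6 libraries, taken by the genotype and treatment in the sample titles, so that 12 of the 24 libraries of the series were compared. The other 12 came from Gpr39 knockout (KO) cells given the same treatments and serve here to test whether an effect differed without the intact gene. They also entered the expression filter and the estimate of spread behind every test. mpkCCD is a mouse epithelial line of the kidney's cortical collecting duct. Before treatment the cells had polarized on permeable inserts for 9 days in medium without dDAVP, a vasopressin analogue, and had then been held in simple media for 24 h. The agonist was given at 1 µM for 2 h on the basolateral side, and the vehicle was 0.1% DMSO. Every group, the vehicle groups included, also received 10 µM ZnCl2. The labels name DMSO for the vehicle groups alone, so a difference in DMSO between the groups cannot be told apart from the effect of the compound. Whether the 6 replicates were separate cultures is not in the labels, nor how many KO clones were used or which part of Gpr39 was edited. All p-values therefore measure the spread between these libraries, which may be technical.

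GPR39 is a G protein-coupled receptor that zinc ions activate. It is known to signal through Gq to phospholipase C, inositol trisphosphate and calcium, and also to the actin cytoskeleton and serum response factor (SRF). In the collecting duct, principal cells take up water through the channel AQP2, whose arrival at the apical membrane is set by vasopressin, cyclic AMP, protein kinase A and the cortical actin network. A calcium signal acts on transcription within minutes to hours, first through genes that need no new protein (immediate early genes), whose products and their inhibitors then shape a later wave.

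RNA was poly(A)-selected and sequenced, and whole reads recovered from the deposited values came to 30.4 to 41.0 M per library under vehicle and 33.4 to 43.3 M with agonist. Levels are in scaled units: reads divided by the authors' library factor and by gene length, multiplied by 1 constant so that the mean library sums to 1000000. A fold change is the difference between groups in mean log2(scaled units + 0.5), a scale on which low genes appear to change less than they did, and carries the moderated standard error (SE) of limma. Where a gene is said to have risen or fallen by a value, that value is this log2 fold change; values from one group to the other without that word are mean levels in scaled units. A gene was called higher or lower at a Benjamini-Hochberg adjusted p below 0.05 over the 11557 rows tested. Replicates within a group correlated across genes at r of 0.9885 to 0.9968, and no pair agreed within sampling noise. Of the 17 principal cell markers listed, 14 were tested. Of these, 4 were called higher and 6 lower, with a median log2 fold change of −0.15. With each library set to the same total, 4 were higher and 9 lower. The summed level of the 14 was 5097 to 5755 scaled units under vehicle and 9516 to 12370 with agonist, a range set by Krt18. Markers of intercalated cells (5 with values, 3 of them tested) summed over all 5 to 77.0 to 103 scaled units under vehicle and 71.9 to 97.2 with agonist. Those of fibroblasts, endothelium and immune cells (5 with values, 4 of them tested) summed over all 5 to 71.6 to 91.5 and 89.8 to 100.9. Only 1 proximal tubule marker, Lrp2, was tested, and it rose by 0.54 (adjusted p = 0.000866 in limma). Its level was 8.06 to 10.6 scaled units under vehicle and 11.1 to 16.4 with agonist. Of the 3 thick limb and distal tubule markers tested, 2 were called lower. These 3 summed to only 3.22 to 4.78 scaled units under vehicle and 2.82 to 3.86 with agonist. In bulk libraries fewer cells of a kind and less RNA per cell cannot be told apart.

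The agonist changed the transcriptome broadly, and with the deposited factors the changes of at least 4-fold were nearly all increases. Of 11557 genes, 6605 (57.2%) were called, 3302 higher (28.6%) and 3303 lower (28.6%). The libraries of the groups did not overlap for 4339 genes (37.5%). Changes of at least 2-fold were called for 416 genes in the higher direction (3.60%) and 107 in the lower (0.926%), and in 498 of these 523 the groups did not overlap. At 4-fold the split was 107 against 4, at 8-fold it was 46 against 0, and 14 genes rose at least 16-fold. All these counts rest on the library factors as deposited, under which the summed signal of an agonist library was 1.183 times that of a vehicle library (exact permutation test over libraries, two-sided p = 0.00216, the smallest that 6 against 6 allows). With each library set to the same total instead, 1433 genes were called higher and 6944 lower, and the median of all genes moved from −0.01 to −0.24 on the log2 scale. At least 2-fold, the same setting called 307 higher and 269 lower. Rises below about 0.24 on the log2 scale are therefore read here only against that shift, and list counts under the same total are given beside those as deposited. The summed rise over genes was 222171 scaled units and the summed fall 45560 units. The 10 largest rises over all rows tested, named here or not, made up 21.1% of the summed rise. The genes called at least 2-fold higher made up 56.6%.

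**Figure D1:**
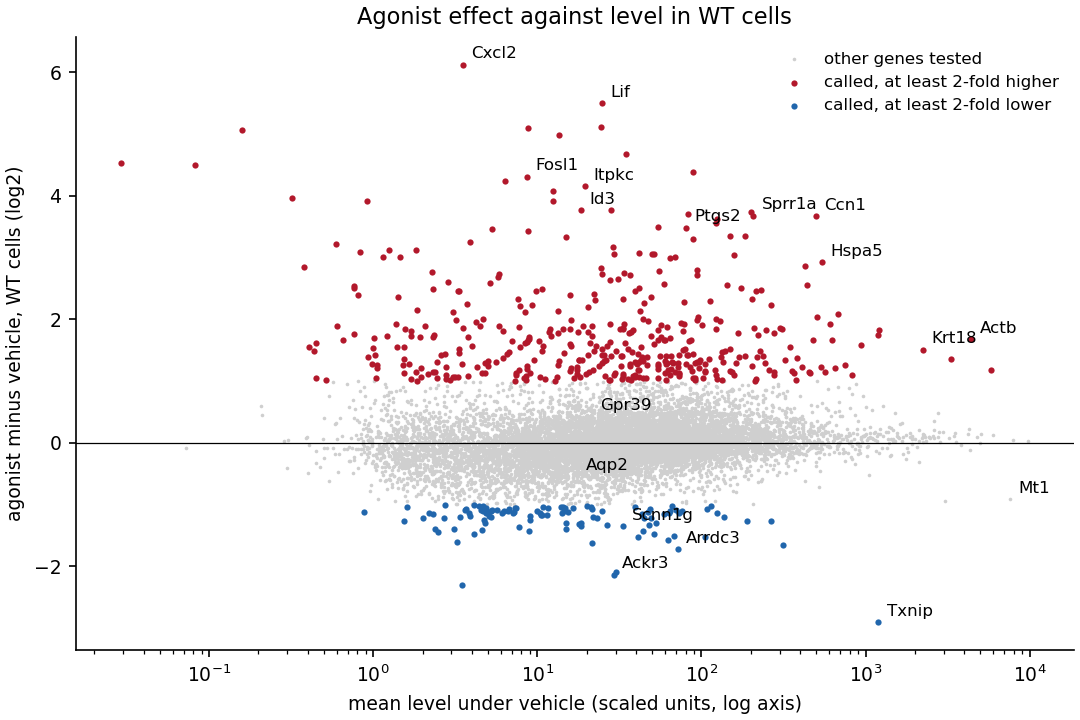
Mean level under vehicle in scaled units (log axis) against the agonist effect in WT cells on the log2 scale, 1 point per gene tested. Genes called at least 2-fold higher (416) and lower (107) are coloured and a few are named; the coloured points above 0 reach 6.12 and those below reach −2.91.

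Steep rises were found at every level of expression, and most steep falls among genes of low level. When the tested genes were ordered by their mean over all libraries, the mean the filter used, and cut into 4 equal bins, the share called at least 2-fold higher was 3.53%, 2.29%, 2.67% and 5.92% from the lowest to the highest bin. The share at least 2-fold lower was 1.90%, 0.831%, 0.658% and 0.312%. A rise or fall is itself part of that mean, so the bins are a description only. Genes with steep rises were also compact. The median genomic span, from the RefSeq annotation of assembly GRCm38.p6, was 8.55 kb for the 46 genes at least 8-fold higher, 17.1 kb for the matched genes at least 2-fold higher, 11.9 kb for those at least 2-fold lower and 23.5 kb for all matched genes.

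The receptor and its proximal signalling genes moved little. Gpr39, on chromosome 1, stood at 20.3 to 24.5 (median 20.9) scaled units in the vehicle libraries and 27.1 to 31.1 (median 29.2) with agonist. The groups did not overlap and the log2 fold change was 0.43 ± 0.06 (adjusted p = 9.63e-07 in limma), although under the same total it was 0.19. In the KO libraries Gpr39 stood at 9.37 ± 0.645 (SD, n = 6) scaled units under vehicle and 9.40 ± 0.882 (n = 6) with agonist, so its transcript was lower but present, and the labels do not say whether the edited part can be read in it. Of 32 tested genes of receptor and G protein signalling, 15 were called higher and 4 lower, with 1 past 2-fold and a median of 0.18. With the same total the counts were 4 and 10. That gene was Rcan1, an inhibitor of the calcium-dependent phosphatase calcineurin that is itself a calcineurin target, which went from 323 to 798 scaled units (1.34 ± 0.15). Orai1, a store-operated calcium channel, rose by 0.53 ± 0.05. Itpr3, an inositol trisphosphate receptor, rose by 0.43 ± 0.09 with overlapping groups, a call lost under the same total (0.19, adjusted p = 0.104 in limma). It was higher in KO cells as well (0.59 ± 0.09, adjusted p = 0.00336 in limma), and the difference was not called (adjusted p = 0.339 in limma). Arrb1, encoding beta-arrestin 1, fell by 0.38. Itpkc, which phosphorylates inositol trisphosphate and so ends its calcium signal, lay outside that list and ranked among the steepest rises of the whole table. Its 6 vehicle libraries held 17.9 to 21.8 (median 18.9) scaled units and its agonist libraries 263 to 444 (median 360.5), a log2 fold change of 4.16 ± 0.10 (adjusted p = 1.63e-20).

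Of 25 listed AP-1, EGR, NR4A and IER transcription factors and other early genes, 17 had a row under a single name and were tested. All 17 rose at least 2-fold, and for each the agonist libraries lay above every vehicle library. Among all genes the groups did not overlap, in either direction, for 37.5%. The list holds classical immediate early transcription factors and a few other early genes, and does not cover these families in full. The list's median was 2.49, against −0.01 over all genes, and 17 were called higher with the same total as well. Among the AP-1 subunits Fosl1, which encodes FRA1, went from 6.60 to 10.2 (median 9.11) to 145 to 220.1 (median 179) scaled units, and its log2 fold change of 4.31 ± 0.11 was exceeded in the list only by that of Fosb (4.68). Fos itself rose less, from 76.9 to 116 (median 103) to 328 to 447 (median 361) (1.90 ± 0.13). Fosl2, encoding FRA2, stood between them at 2.28 ± 0.08. The small MAF proteins Maff and Mafk rose by 2.99 ± 0.12 and 2.49 ± 0.17, and Atf3, a stress-induced repressor, by 3.35 ± 0.19. Of the orphan nuclear receptors, Nr4a1 was the most abundant, with 138 to 241 (median 170.3) scaled units under vehicle and 1617 to 2227 (median 1796) with agonist. Nr4a3 and Nr4a2 rose by 2.61 ± 0.18 and 1.55 ± 0.11. The EGR zinc finger factors rose together, with log2 fold changes of 2.31 for Egr3, 1.85 for Egr2 and 1.84 for Egr1. Csrnp1, an AXIN1-induced nuclear protein, rose from 28.0 to 381 scaled units (3.77 ± 0.17), and Arc, best known as a synaptic early gene, by 3.05 ± 0.12.

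The wider list of inducible transcription factors was split. Of 29 tested, 18 rose, 14 of them at least 2-fold, and 7 fell, with 16 and 7 under the same total. Id3, an inhibitor of helix-loop-helix factors, went from 14.0 to 23.1 (median 17.9) to 213 to 301 (median 249) scaled units (3.77 ± 0.17), whereas its relative Id2 fell from 222 to 143 (−0.64 ± 0.08). Sox9, a progenitor factor of kidney epithelium, rose from 6.36 to 10.9 (median 8.91) to 74.4 to 121 (median 100.2) (3.43 ± 0.12). Klf6, Klf7, Klf2 and Klf5 rose by 1.24 to 2.23, and Klf11 fell by 0.45. Irf1, the interferon response factor, fell by 1.12, from 47.3 to 21.6 scaled units, and Hes1, a Notch target, by 0.59. Ets2 and Ets1 rose by 1.77 ± 0.07 and 1.28 ± 0.05.

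**Figure D2:**
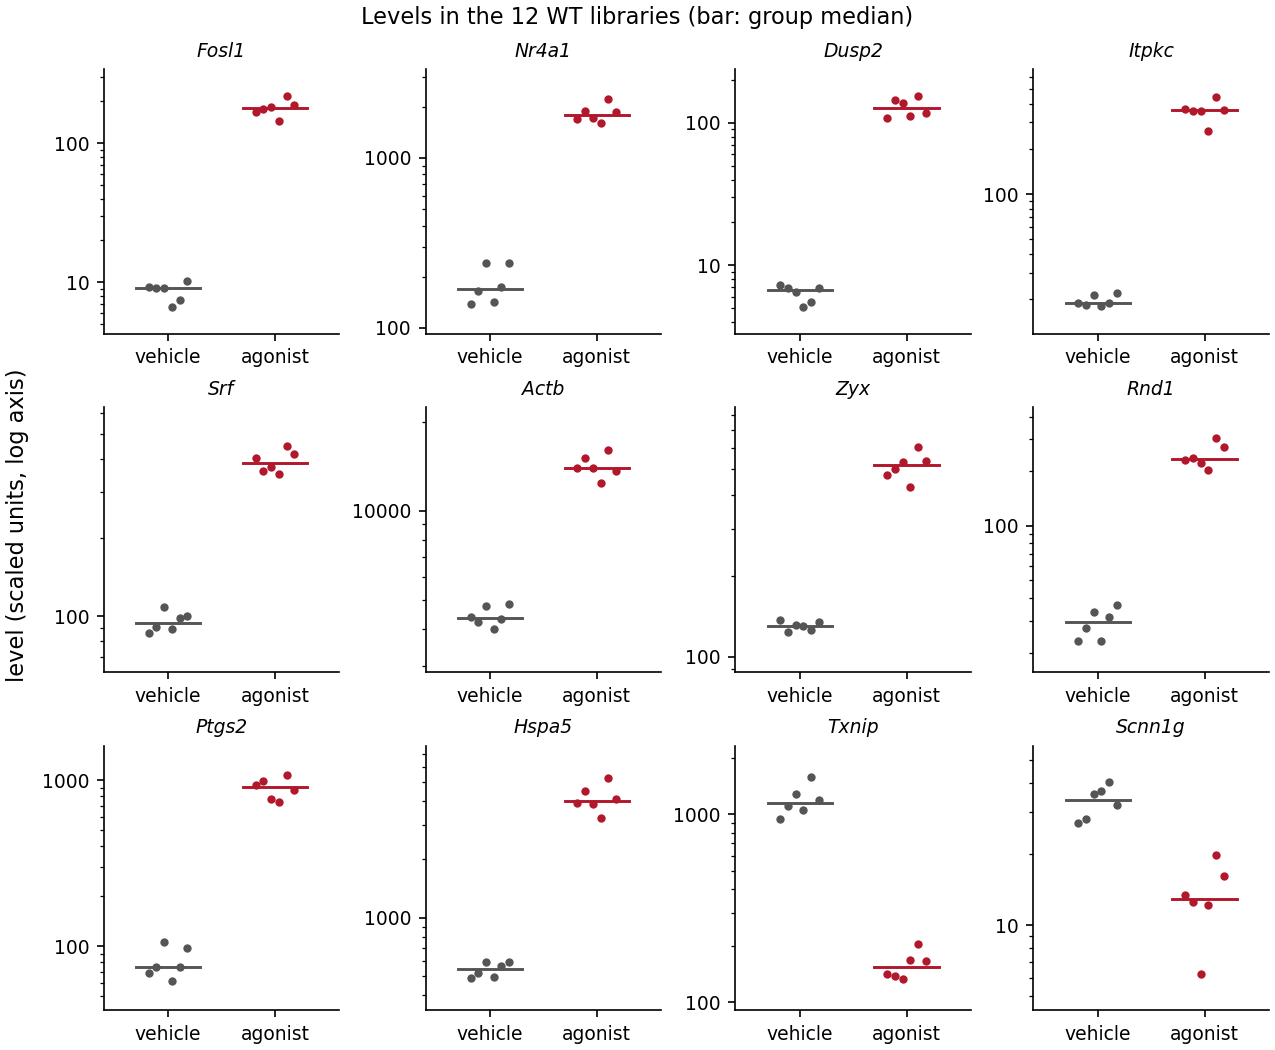
Scaled units in each of the 12 libraries (log axis) for 12 genes of different roles, with vehicle libraries in grey, agonist libraries in red and a bar at each group's median. In the 10 panels of rising genes every red point lies above every grey point; in those of Txnip and Scnn1g every red point lies below.

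Inhibitors of mitogen-activated protein (MAP) kinase signalling rose with the early factors. Of 35 tested phosphatases and feedback regulators, 29 were called higher and 0 lower, 14 at least 2-fold; under the same total 24 were higher and 3 lower. The libraries of the groups did not overlap for 25 of the 35, against 37.5% of all genes. Dusp2, a nuclear phosphatase of ERK and p38, went from 5.07 to 7.31 (median 6.68) to 107 to 155 (median 128) scaled units (4.24 ± 0.20). Dusp5, which acts on nuclear ERK, reached 1534 to 2230.5 (median 1792) scaled units from 68.9 to 122 (median 81.0) (4.39 ± 0.14). Phosphatases with a preference for JNK and p38 rose too, namely Dusp1 (3.00 ± 0.12), Dusp8 (2.49 ± 0.10) and Dusp10 (2.33 ± 0.10). Dusp14 rose by 2.50 ± 0.08 and the cytoplasmic ERK phosphatase Dusp6 by 1.94 ± 0.09. Errfi1, an inhibitor of the EGF receptor kinase, went from 24.7 to 167 scaled units (2.73 ± 0.08), and Spry2 and Spred2, inhibitors of RAS signalling, rose by 0.88 ± 0.06 and 0.58 ± 0.06. Phlda1 held 156 to 246 (median 195) scaled units under vehicle and 2139.9 to 3198 (median 2560.1) with agonist. Among called genes with a single, not predicted name it was 1 of the 10 largest rises in units. The kinases themselves moved less. Of 33 cascade components 19 were called higher and 5 lower, a median of 0.15, and under the same total 13 and 16. Map2k3, an activator of p38, and Mapk6, encoding ERK3, rose by 1.51 ± 0.11 and 1.50 ± 0.07. Map3k1, an upstream kinase of JNK, fell from 80.2 to 43.0 scaled units (−0.94 ± 0.12), and the receptor genes Erbb2 and Erbb3 fell by 0.64 and 0.53 while Egfr rose by 0.75 ± 0.06.

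SRF and several of its known targets rose, some to high levels. Srf, whose product binds CArG boxes together with actin-sensing coactivators, rose from 86.2 to 108 (median 94.4) to 349.6 to 447 (median 388) scaled units (2.03 ± 0.08). The coactivators Mrtfa and Mrtfb stood at 54.6 to 59.0 and 34.9 to 33.7 scaled units from vehicle to agonist, and neither passed the test. Among the targets shared with the YAP and TEAD factors, Ccn1, a matricellular protein, went from 452 to 603 (median 479) to 5458 to 7527 (median 6189) scaled units (3.66 ± 0.11), and Ankrd1 from 71.8 to 105 (median 78.6) to 902 to 1273 (median 1079) (3.70 ± 0.11). Ccn2 rose by 2.56 ± 0.12, and Thbs1, encoding thrombospondin 1, by 2.85 ± 0.08, to 3109 scaled units. Yap1 itself stood at 94.5 to 91.4 and did not pass, and Amotl2, an inhibitor of YAP, fell by 0.27. Of 24 tested members of this list 12 were higher and 1 lower, and 7 and 8 under the same total.

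Actin isoforms and actin binding proteins rose in number but mostly by less than 2-fold. Of 48 tested, 38 were called higher and 3 lower, with 5 at least 2-fold higher and a median of 0.34. Under the same total the counts were 22 and 12. Actb held 3979.5 to 4844 (median 4347) scaled units under vehicle and 12398 to 16039 (median 13984) with agonist, and its rise of 9775 units was larger than that of any other gene. Actg1, the other cytoplasmic actin, went from 3025 to 3618 (median 3237) to 7319 to 9893 (median 8288) (1.35 ± 0.07). Acta1, the skeletal muscle actin, rose from 4.25 to 18.0 scaled units (1.96 ± 0.14). Actr3, a subunit of the branching Arp2/3 complex, rose by 1.14 ± 0.06, more than its subunits Arpc4 (0.63 ± 0.05) and Arpc5 (0.58 ± 0.05), while Arpc1a stood at 147 to 141 and did not pass. Flna, a cross-linker, rose by 1.15 ± 0.12 and Vasp, which speeds filament growth, by 0.92 ± 0.09. Ezr, the linker of filaments to the apical membrane, rose by 0.75 ± 0.05. The formin genes Fhod1 and Fmnl3 fell by 0.45 and 0.37.

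Genes of the adhesion plaque were also mostly called higher. Of 35 focal adhesion genes, 26 were called higher and 1 lower, 8 at least 2-fold, with a median of 0.42; under the same total 18 were higher and 7 lower. Flnc, a filamin of muscle, went from 43.1 to 58.5 (median 47.5) to 195 to 325 (median 252) scaled units (2.37 ± 0.11). Zyx, encoding the tension-sensitive protein zyxin, went from 123 to 138 (median 131) to 431 to 605 (median 519) (1.97 ± 0.06), and Vcl, encoding vinculin, rose by 1.66 ± 0.08. The integrin subunits Itgav and Itgb6, which pair to bind and activate latent TGF-beta, rose by 1.70 ± 0.07 and 1.42 ± 0.08, and Itgb5 fell by 0.44. Fhl2, a LIM protein of SRF signalling, and Palld, encoding the actin bundler palladin, lay outside the list and rose by 3.06 ± 0.16 and 2.75 ± 0.07. They were named after their values were seen.

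Single regulators of the cytoskeleton moved both ways. Rnd1, a constitutively active GTPase that loosens actin stress fibres, went from 23.1 to 36.7 (median 29.4) to 203 to 304 (median 233) scaled units (3.05 ± 0.12). The CDC42 effectors Cdc42ep3, Cdc42ep1 and Cdc42ep4 rose by 2.41 ± 0.07, 1.42 ± 0.06 and 1.29 ± 0.10, and Rhof, which drives filopodia, by 1.65 ± 0.08. Rock2, a kinase of actomyosin contraction, rose by 1.10 ± 0.08, and its paralog Rock1 by 0.48 ± 0.06. Arhgap24, a GTPase-activating protein for RAC that binds filamin, fell from 37.8 to 59.8 (median 52.6) to 11.3 to 26.8 (median 17.5) scaled units (−1.47 ± 0.16), but it was also lower in KO cells given agonist (−0.58 ± 0.16, adjusted p = 0.032). Of 25 myosin and tropomyosin genes 19 were higher and 0 lower, with 9 and 1 under the same total. Tpm2 rose by 1.44 ± 0.15, and Myh9, the heavy chain of non-muscle myosin IIA, went from 505 to 569 (median 536) to 1093 to 1434 (median 1292) (1.23 ± 0.07). Tpm2 was called higher in KO cells too (0.61 ± 0.15, adjusted p = 0.0201 in limma). The median of the myosin and tropomyosin genes was 0.27 in WT cells and 0.12 in KO cells. Of 29 tubulin, septin and microtubule genes 20 were higher and 0 lower (10 and 8 under the same total), led by Tubb2b (1.28 ± 0.09) and Tubb6 (1.28 ± 0.12).

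Keratins and cell junction genes rose as well. Of 16 intermediate filament and desmosome genes 13 were higher and 1 lower, and 11 and 2 under the same total. Krt18, a simple epithelial keratin, went from 1996 to 2453 (median 2222) to 5504 to 7433 (median 6287) scaled units (1.51 ± 0.07), and Krt20 rose by 1.92 ± 0.09 and Krt80 by 1.83 ± 0.07. Evpl, a desmosomal plakin, fell by 0.33. The median of this list was 0.58 in WT cells and 0.19 in KO cells. Krt20 was called higher in KO cells too (0.35 ± 0.09, adjusted p = 0.0240 in limma), by less than in WT cells. Of 26 tight and adherens junction genes 19 were higher and 1 lower, and 16 and 5 under the same total. Cldn1, a barrier claudin, rose from 4.17 to 6.71 (median 5.10) to 22.6 to 43.3 (median 35.5) (2.58 ± 0.12). Tjp1, a scaffold of the tight junction, rose by 0.57 ± 0.07, whereas Tjp3 fell by 0.38. Pard6b, a polarity scaffold, rose from 268 to 333 (median 299) to 935 to 1299 (median 1111) (1.86 ± 0.08), and Cdh1, encoding E-cadherin, by 0.89 ± 0.05.

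**Figure D3:**
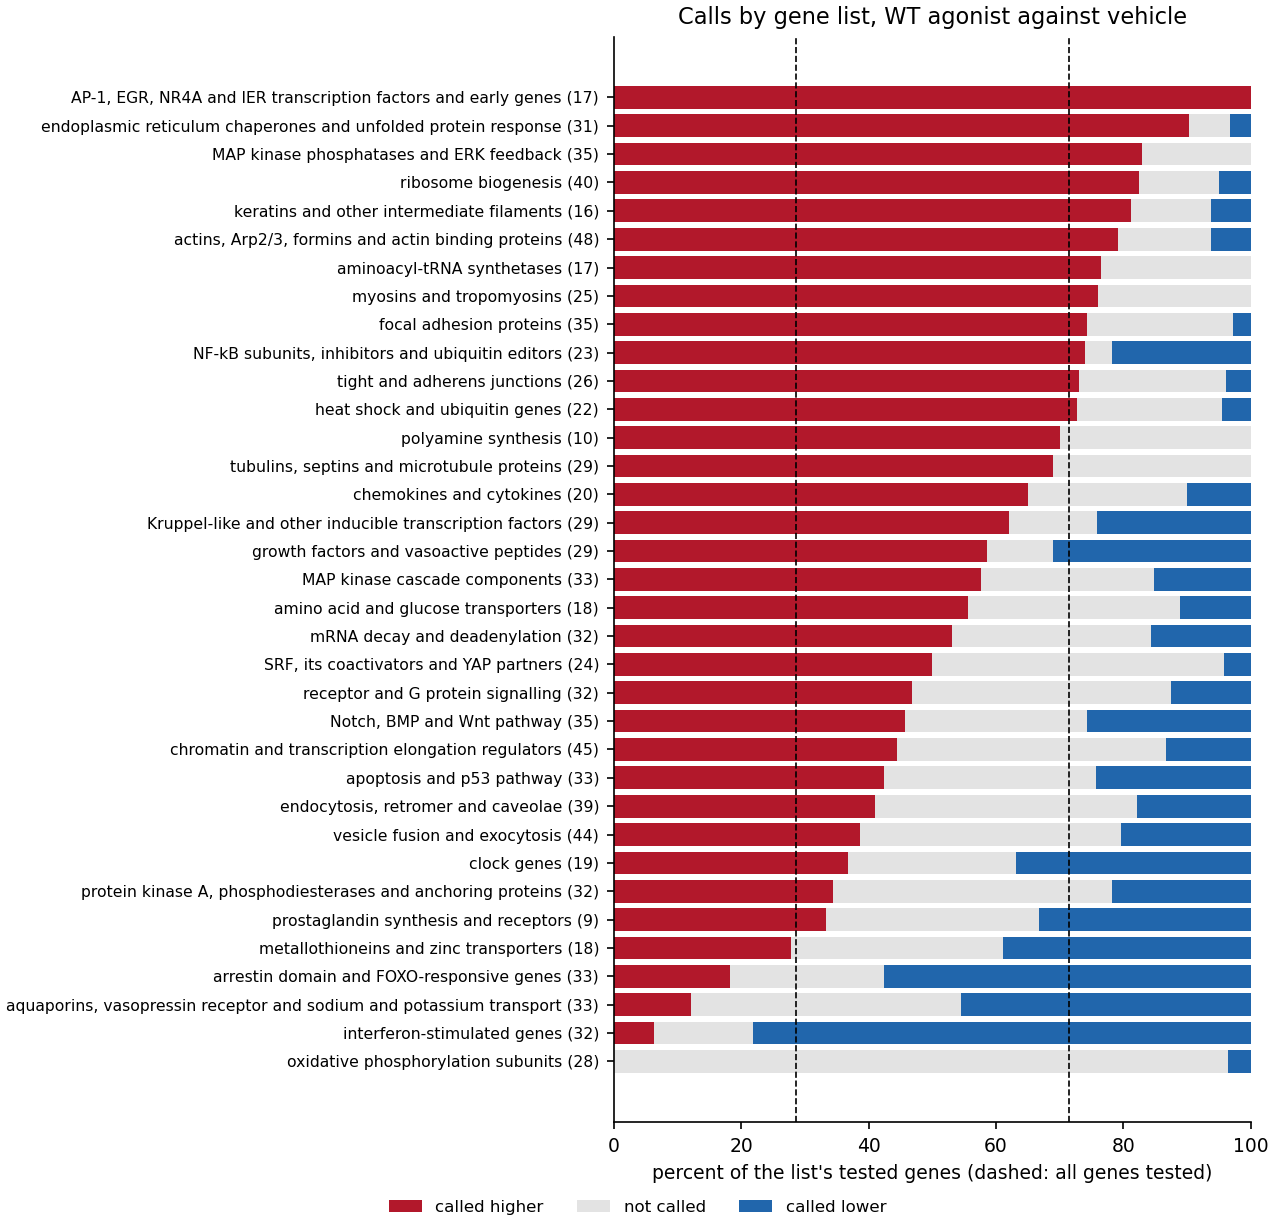
Tested genes in each list shown that were called higher (red), called lower (blue) or neither (grey) in WT cells given agonist, as a percentage of the list's tested members, with the background over all genes (28.6% each way) as dashed lines. The number tested stands beside each name; lists are ordered by the share called higher.

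Promoters of the rising genes were read for short motifs, since SRF, NF-kB, AP-1 and CREB each bind a known one and the genes for several of them rose. A RefSeq window of 250 bases before to 50 after the annotated start (GRCm38.p6) matched 8680 of the 11014 tested genes with a single name, and the first listed window was used for the 1836 with several. Both strands were searched, and a match is a description of letters only. The CArG box, given by its name, stood in 5.05% of the 297 promoters of genes at least 2-fold higher, 13.5% of the 37 at least 8-fold higher, 0 of the 76 at least 2-fold lower and 1.29% of all. The AP-1 site TGANTCA stood in 10.8%, 21.6%, 9.21% and 4.91% of the same sets. The NF-kB site, by its name, stood in 11.4%, 18.9%, 6.58% and 5.06%. The cAMP response element TGACGTCA stood in 4.38%, 2.70%, 1.32% and 3.39%, and the TATA box TATAAA in 16.2%, 40.5%, 6.58% and 6.52%. The ETS site CCGGAAGT stood in 3.03%, 2.70% and 2.63% against 8.93% of all. The E-box CACGTG stood in 9.76%, 8.11%, 6.58% and 10.4% of the sets in the first order, the FOXO site TGTTTAC in 3.03%, 0%, 6.58% and 2.48%, and the CCAAT box CCAAT in 34.3%, 35.1%, 51.3% and 38.9%. Overlaps between motifs were not removed. The sets also differed in base composition, with a median of 10 CG pairs per window at 8-fold, 19 at 2-fold higher, 12.5 at 2-fold lower and 21 over all, and the part of composition in these shares was not tested.

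**Figure D4:**
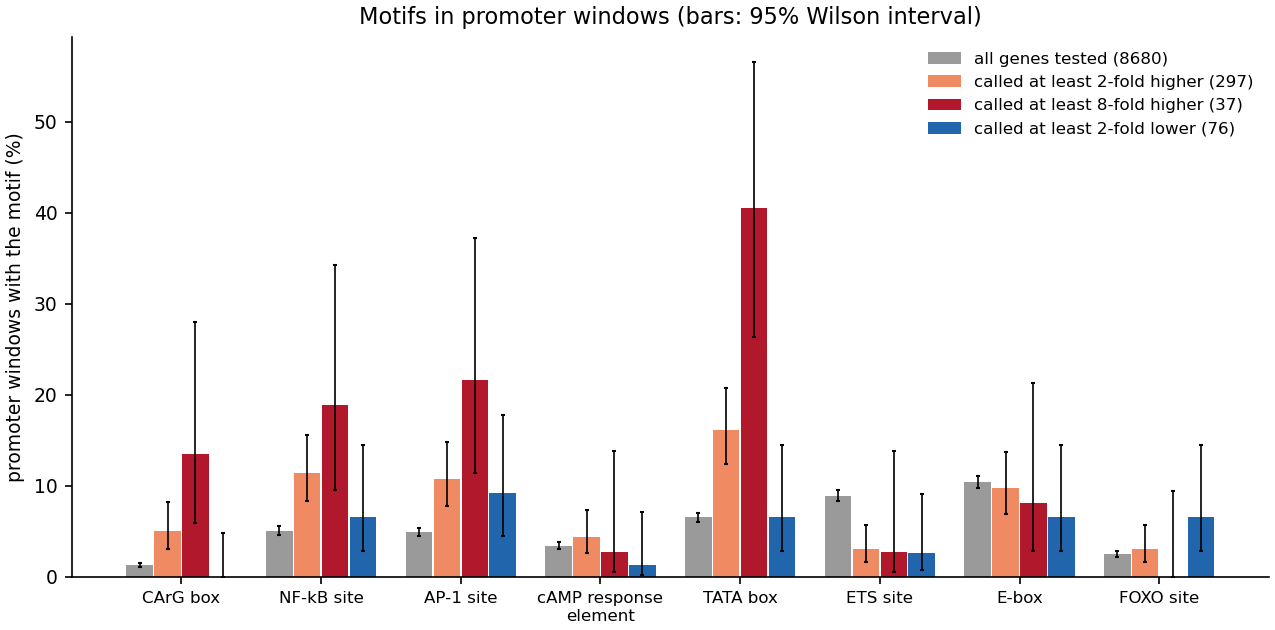
Percentage of promoter windows that hold each motif in all genes tested (8680), genes 2-fold or more higher (297), 8-fold or more higher (37) and 2-fold or more lower (76), with 95% Wilson intervals that cover counting error only. The red bars for the CArG box, the AP-1 site, the NF-kB site and the TATA box stand above the grey ones.

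The 150 bases before the start are shown for a few members in which such letters lay close to the gene, because the results describe these genes (RefSeq, GRCm38.p6, 5′ to 3′ on the gene's strand). Capitals mark CArG boxes in the first 4, a tandem pair in Dusp5 and a spaced pair in Srf.
Dusp5 (chr19:53528995-53529144, plus strand): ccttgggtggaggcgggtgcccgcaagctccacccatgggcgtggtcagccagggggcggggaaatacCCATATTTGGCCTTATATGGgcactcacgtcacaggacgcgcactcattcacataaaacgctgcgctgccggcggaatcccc
Srf (chr17:46556163-46556312, minus strand): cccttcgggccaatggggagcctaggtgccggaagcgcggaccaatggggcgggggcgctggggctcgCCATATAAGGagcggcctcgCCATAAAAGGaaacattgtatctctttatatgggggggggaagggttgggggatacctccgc
Fhl2 (chr1:43196762-43196911, minus strand): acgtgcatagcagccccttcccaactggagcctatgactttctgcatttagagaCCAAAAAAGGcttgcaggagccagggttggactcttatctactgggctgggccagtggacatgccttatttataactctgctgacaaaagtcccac
Actg1 (chr11:120348496-120348645, minus strand): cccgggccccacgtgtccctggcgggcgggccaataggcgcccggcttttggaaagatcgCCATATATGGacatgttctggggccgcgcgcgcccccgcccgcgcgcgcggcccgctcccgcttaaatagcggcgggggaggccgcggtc

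In the next 3, capitals mark NF-kB sites. Cxcl2 and Cxcl1 carry the same run of letters at different distances from the start, and Tnfaip3 carries a pair.
Cxcl2 (chr5:90903749-90903898, plus strand): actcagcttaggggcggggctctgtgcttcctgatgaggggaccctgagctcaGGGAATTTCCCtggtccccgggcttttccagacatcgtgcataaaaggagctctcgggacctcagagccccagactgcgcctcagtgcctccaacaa
Cxcl1 (chr5:90891095-90891244, plus strand): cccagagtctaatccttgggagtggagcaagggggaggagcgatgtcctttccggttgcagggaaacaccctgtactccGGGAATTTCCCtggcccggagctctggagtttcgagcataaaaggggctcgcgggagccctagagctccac
Tnfaip3 (chr10:19015411-19015560, minus strand): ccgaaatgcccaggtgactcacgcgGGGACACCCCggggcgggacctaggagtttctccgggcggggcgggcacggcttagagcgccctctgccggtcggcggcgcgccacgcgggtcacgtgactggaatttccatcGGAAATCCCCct

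In the last 4, capitals mark AP-1 sites in Plaur, Sprr1a and F3 and the cAMP response element in Areg.
Plaur (chr7:24462333-24462482, plus strand): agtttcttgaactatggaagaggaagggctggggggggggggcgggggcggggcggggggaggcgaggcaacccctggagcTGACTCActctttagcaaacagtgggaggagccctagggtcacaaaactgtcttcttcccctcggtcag
Sprr1a (chr3:92485882-92486031, minus strand): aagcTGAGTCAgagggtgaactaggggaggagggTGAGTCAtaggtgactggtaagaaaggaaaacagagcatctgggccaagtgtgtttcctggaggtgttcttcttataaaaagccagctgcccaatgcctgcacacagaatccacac
F3 (chr3:121723387-121723536, plus strand): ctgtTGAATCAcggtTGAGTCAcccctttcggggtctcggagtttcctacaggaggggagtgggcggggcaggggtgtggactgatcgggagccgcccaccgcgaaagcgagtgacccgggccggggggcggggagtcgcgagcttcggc
Areg (chr5:91139449-91139598, plus strand): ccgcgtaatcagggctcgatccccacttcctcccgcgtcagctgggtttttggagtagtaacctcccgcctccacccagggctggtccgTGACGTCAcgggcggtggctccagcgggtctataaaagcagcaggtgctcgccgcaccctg

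Secreted signals held the steepest rises of all. Of 20 tested chemokine and cytokine genes 13 were called higher, 12 of them at least 2-fold, and 2 lower, with a median of 1.62; under the same total 13 and 5. Cxcl2 and Cxcl1, ligands that draw neutrophils, share the promoter letters shown above and lie near each other on chromosome 5 in the RefSeq order of GRCm38.p6. Cxcl2 held 2.04 to 5.61 (median 3.35) scaled units under vehicle and 203 to 322 (median 275) with agonist, a 76.2-fold ratio of means. Their neighbour Ppbp, another ligand of the same receptor, went from 4.40 to 6.22 (median 5.39) to 54.5 to 84.7 (median 60.1) (3.47 ± 0.12). Lif, an interleukin 6 family cytokine, was the most abundant of the list after agonist, at 921 to 1336 (median 1132) scaled units against 17.2 to 32.2 (median 23.4). Csf3 and Csf1, growth factors of granulocytes and macrophages, rose by 2.69 ± 0.10 and 1.79 ± 0.11, and Cxcl16 by 1.73 ± 0.07. Some members were near the detection limit under vehicle: Tnf stood at 0.134 to 0.409 (median 0.357) scaled units and rose to 8.38 to 13.9 (median 13.1), and Il1a stood at 0.0461 to 0.231 (median 0.195) and rose to 16.8 to 28.7 (median 21.5). Ccl5, a ligand of lymphocytes that interferon induces, fell by 0.60 (adjusted p = 0.0245 in limma), a call that was lost without vehicle replicate 5 or 6 or agonist replicate 2 or 3 (adjusted p of 0.0543 to 0.0600).

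Ligands of the EGF receptor and other growth factors rose with them. Of 29 tested growth factor and vasoactive peptide genes 17 were higher, 13 at least 2-fold, and 9 lower; under the same total 15 and 12. Areg went from 15.9 to 35.4 (median 22.7) to 678 to 1045 (median 804) scaled units (5.11 ± 0.16), Ereg from 8.94 to 15.1 (median 13.1) to 178 to 272 (median 212) (4.07 ± 0.11) and Hbegf from 127 to 201 (median 153) to 1083 to 1560.5 (median 1270.3) (3.04 ± 0.12). These encode EGF receptor ligands, but Btc, a further one, fell from 50.3 to 33.3 (−0.58 ± 0.12), and Tgfa stood at 74.4 to 70.4 and did not pass. Adm, the vasodilator adrenomedullin, went from 9.03 to 15.5 (median 12.9) to 163 to 236 (median 193) (3.92 ± 0.16), and Edn1, endothelin 1, which restrains water and sodium uptake in the collecting duct, from 19.4 to 23.5 (median 22.0) to 70.5 to 95.2 (median 83.2) (1.90 ± 0.07). The stress cytokine Gdf15 rose by 2.01 ± 0.11. Nppb, natriuretic peptide B, was at 0 to 0.175 scaled units in the vehicle libraries and 7.45 to 16.4 (median 12.3) with agonist, too low under vehicle for a ratio. Falling members included Wnt4 (−0.73 ± 0.08), Wnt9a (−0.76 ± 0.09) and Tgfb3 (−0.82 ± 0.11).

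In prostaglandin synthesis 2 genes stood out among 9 tested. Ptgs2, the inducible cyclooxygenase, went from 61.8 to 106 (median 75.4) to 735 to 1079.5 (median 907) scaled units (3.48 ± 0.13), and Ptger4, a receptor for prostaglandin E2 that raises cyclic AMP, from 23.7 to 35.3 (median 27.2) to 228 to 318 (median 257) (3.17 ± 0.11). The terminal synthase Ptges fell by 0.57. Of the NF-kB pathway, 17 of 23 tested genes were higher, 9 at least 2-fold, and 5 lower (14 and 6 under the same total). The 9 include inhibitors as well as subunits. Tnfaip3, a ubiquitin editor that ends NF-kB signalling, went from 12.0 to 15.5 (median 13.3) to 333 to 557 (median 456) (4.99 ± 0.10). Nfkbid, Nfkbia and Nfkbie, of the inhibitor of NF-kB family, rose by 2.76 ± 0.12, 1.49 ± 0.07 and 1.25 ± 0.08, and Zc3h12a, an endonuclease of cytokine transcripts, by 2.46 ± 0.09. The subunits Rel, Rela and Relb rose by 1.34 ± 0.08, 1.29 ± 0.06 and 1.09 ± 0.10. Among decay factors of other messages, Btg2, an activator of deadenylation, went from 179 to 301 (median 221) to 1144 to 1524 (median 1240.5) (2.47 ± 0.13), and Noct, a circadian protein once taken for a deadenylase, rose by 3.49 ± 0.10, named after its value was seen.

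Some genes outside the lists were named after their values were seen, and stand for no group. Plaur, the urokinase receptor, rose by 2.56 ± 0.11, Plau, urokinase itself, by 1.56 ± 0.10, and F3, tissue factor, by 2.09 ± 0.12, to 2856 scaled units. Serpinb2, a urokinase inhibitor, was at 0.0825 scaled units under vehicle and 6.56 to 17.2 (median 13.7) with agonist. Sprr1a, of the cornified envelope of skin, went from 144 to 276 (median 200.4) to 2042 to 3192 (median 2655) scaled units (3.68 ± 0.18). Among called genes with a single, not predicted name Sprr1a was also among the 10 largest rises in units. In contrast, Sprr2e, Sprr2h, Cnfn and Lce3c reached only 11.6, 9.43, 8.69 and 19.6 units with agonist. Anxa1, a phospholipid-binding protein of resolving inflammation, rose from 1090.3 to 1342 (median 1160.0) to 3285 to 4738 (median 3885) (1.75 ± 0.07), and Epha2, an ephrin receptor, by 2.80 ± 0.10.

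Among genes that carry water and sodium, more were called lower than higher. Over all genes the share called lower was 28.6%, and 60.1% under the same total. The summed level of the list overlapped between the groups, at 4729 to 5879 scaled units under vehicle and 4444 to 5735 with agonist. Of 33 tested genes of aquaporins, vasopressin signalling and salt transport, 4 were called higher and 15 lower, 4 at least 2-fold lower, with a median of −0.22; under the same total 3 and 24. Aqp2 stood at 11.9 to 22.6 (median 18.7) scaled units under vehicle and 9.16 to 13.5 (median 11.7) with agonist. The groups overlapped, and the log2 fold change was −0.54 ± 0.17 (adjusted p = 0.00865 in limma). In KO cells it was −0.40 ± 0.17 and did not pass (adjusted p = 0.129), and the difference between the genotypes was not called (adjusted p = 0.667). Avpr2, the vasopressin receptor upstream of AQP2, fell from 82.3 to 126 (median 103) to 42.1 to 64.0 (median 56.5) scaled units (−0.94 ± 0.13). Scnn1g, the gamma subunit of the epithelial sodium channel, fell from 27.0 to 40.3 (median 34.0) to 6.25 to 19.8 (median 13.0) (−1.35 ± 0.19), whereas Scnn1a stood at 376 to 345 and did not pass (−0.13 ± 0.07, adjusted p = 0.0998 in limma). It passed without vehicle replicate 6 or agonist replicate 5 (adjusted p of 0.0494 and 0.0300). Scnn1b fell by 0.30 (adjusted p = 0.0474 in limma), and left out 1 at a time, vehicle replicates 2, 3, 5 and 6 and agonist replicates 1 to 4 each took that call away (adjusted p of 0.0574 to 0.118). Sgk1, a kinase that keeps the channel at the surface, fell from 213 to 343 (median 257) to 88.3 to 134 (median 109) (−1.26 ± 0.11), and Tsc22d3, like Sgk1 a target of corticosteroids, by 1.10. Aqp5 fell by 1.06, from 14.8 to 6.89 scaled units. Bsnd, a chloride channel subunit of distal nephron, fell by 1.02 and was named after its value was seen. Slc12a2, the basolateral sodium-potassium-chloride cotransporter, rose by 0.70 ± 0.08.

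Trafficking genes changed little as groups, with single members standing out. Of 44 vesicle fusion genes 17 were higher and 9 lower (7 and 26 under the same total). Rab11fip1, an effector of recycling endosomes, went from 55.4 to 64.4 (median 60.9) to 119.8 to 203 (median 165) scaled units (1.41 ± 0.08), and Exoc5, of the exocyst, rose by 0.84 ± 0.06. Rab20 fell from 24.7 to 31.5 (median 26.0) to 12.1 to 17.5 (median 13.8) (−0.93 ± 0.09). Of 39 genes of endocytosis and caveolae 16 were higher and 7 lower (9 and 22 under the same total). Ehd1, of endocytic recycling, rose by 1.52 ± 0.07, Cav1, encoding caveolin 1, by 1.28 ± 0.08, and Picalm, a clathrin adaptor, by 1.20 ± 0.07, while Cavin2, a caveolar coat protein, fell from 5.09 to 1.98 (−1.18 ± 0.13). Mylip, a ubiquitin ligase, fell by 1.50, from 67.9 to 23.8. Of 32 genes around protein kinase A 11 were higher and 7 lower (6 and 18 under the same total). Akap12, an anchoring protein, went from 542 to 682 (median 613) to 1728 to 2475 (median 1902) (1.66 ± 0.09). Pde4b, which degrades cyclic AMP, went from 2.56 to 3.82 (median 2.96) to 10.4 to 20.3 (median 15.0) (2.12 ± 0.14), and Sik1, a kinase that silences CREB coactivators, rose by 1.97 ± 0.07. Pde7a fell by 0.70. The catalytic subunit gene Prkaca went from 165 to 169.7 and did not pass.

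Genes of endoplasmic reticulum (ER) chaperones and the unfolded protein response, taken as 1 list, rose nearly as a set. Of 31 tested, 28 were called higher and 1 lower, 8 at least 2-fold, with a median of 0.72; under the same total 24 and 2. Hspa5, the chaperone BiP, went from 489 to 593 (median 541) to 3285 to 5271 (median 4002) scaled units (2.93 ± 0.09), far above the rest. Hsp90b1, Manf, Hyou1 and Herpud1, its companions in protein folding and disposal, rose by 1.21 ± 0.06, 1.29 ± 0.06, 1.17 ± 0.06 and 1.19 ± 0.08. Ppp1r15a, the phosphatase subunit that restores translation after stress, rose by 2.29 ± 0.08, Atf4 by 0.95 ± 0.07 and Xbp1 by 0.71 ± 0.08. Of 22 heat shock and ubiquitin genes 16 were higher and 1 lower (11 and 5 under the same total). Hspb1, a small heat shock protein that binds actin, rose from 79.8 to 108 (median 96.1) to 320.2 to 409 (median 378) (1.99 ± 0.11), while Hsph1 stood at 75.8 to 77.4 and did not pass. Hspb1 was called higher in KO cells too (0.50 ± 0.11, adjusted p = 0.0142 in limma). Hmox1, heme oxygenase, was named after its value was seen and rose by 1.59 ± 0.17, to 2767 scaled units.

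Genes of cell death and growth arrest went both ways. Of 33 tested 14 were higher and 8 lower (12 and 15 under the same total). Pmaip1, the BH3-only protein NOXA, went from 68.7 to 117 (median 82.8) to 720.0 to 1059 (median 835) scaled units (3.29 ± 0.12). Other BH3-only genes fell, with Bmf going from 41.0 to 47.7 (median 44.4) to 12.3 to 22.4 (median 15.1) (−1.42 ± 0.10) and Bcl2l11, encoding BIM, falling by 0.78. Cdkn1a, the cell cycle inhibitor p21, rose by 1.66 ± 0.06 and Gadd45a and Gadd45b by 2.00 ± 0.09 and 1.83 ± 0.09. The sestrins, stress sensors that restrain mTOR, were split: Sesn2 rose from 72.4 to 169.7 (1.22 ± 0.06) and Sesn1 fell from 22.6 to 30.5 (median 26.8) to 8.40 to 11.4 (median 10.6) (−1.33 ± 0.08).

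Genes of growth metabolism rose in number but by small steps. Of 40 ribosome biogenesis genes 33 were higher and 2 lower, 0 at least 2-fold, with a median of 0.37; under the same total 18 and 8. Ddx21, a nucleolar helicase, rose by 1.00 ± 0.06 and Gnl3, nucleostemin, by 0.81 ± 0.05. Of 17 aminoacyl-tRNA synthetases 13 were higher and 0 lower, with a median of 0.29, but 7 and 5 under the same total. Of 10 polyamine genes 7 were higher and 0 lower (6 and 3 under the same total), led by Azin1, which protects ornithine decarboxylase (1.10 ± 0.09), with Odc1, the decarboxylase itself, at 0.62 ± 0.08. Among nutrient transporters 10 of 18 were higher and 2 lower (7 and 6 under the same total). Slc2a1, a glucose transporter, rose by 1.35 ± 0.08, Slc38a2, of neutral amino acids, by 1.15 ± 0.05, and Slc20a1, of phosphate, by 1.42 ± 0.07. As a reference, 0 of 28 oxidative phosphorylation genes were called higher and 1 lower as deposited, Ndufb8, and their median was −0.03. With the same total 25 of them were called lower.

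Among regulators of nutrient and insulin signalling most genes were called lower. Of 33 arrestin domain and FOXO-responsive genes 19 were lower, 6 at least 2-fold, and 6 higher, with a median of −0.23. Under the same total 24 were lower and 3 higher, with a median of −0.47 against −0.24 over all genes. The share of all genes called lower was 28.6% as deposited and 60.1% under the same total. Txnip, an arrestin that limits glucose uptake, fell from 939 to 1577 (median 1153) to 134 to 203 (median 154) scaled units (−2.91 ± 0.12), the largest fall by ratio of any gene named by the rule. Depp1 fell from 78.2 to 139.7 (median 108) to 18.1 to 62.7 (median 31.9) (−1.53 ± 0.23), Arrdc2 by 0.99, and Pik3ip1, an inhibitor of phosphoinositide 3-kinase, by 1.09, from 3.62 to 1.42. Foxo1 rose by 0.82 ± 0.06, against Foxo3 and Foxo4, which fell by 0.23 and 0.27. Irs2 rose by 0.49 ± 0.07 and Irs1 fell by 0.71. Of 35 Notch, BMP and Wnt genes 16 were higher and 9 lower (11 and 17 under the same total). The Wnt receptors Fzd4 and Fzd7 fell by 1.14 and 1.13, while Fzd5 rose by 0.66 ± 0.05, and the transcriptional repressors Tgif1 and Skil rose by 1.71 ± 0.08 and 1.39 ± 0.06. Ackr3, an atypical receptor that scavenges chemokines, fell from 22.7 to 36.1 (median 28.4) to 3.74 to 8.54 (median 6.47) (−2.13 ± 0.15), and Angpt2, an angiopoietin, from 15.0 to 5.43 (−1.39 ± 0.19).

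Of 45 regulators of chromatin and transcription elongation 20 were higher and 6 lower (6 and 20 under the same total). Kdm6b, an inducible demethylase of histone H3, went from 79.6 to 90.9 (median 83.3) to 223 to 314 (median 268) (1.65 ± 0.07), and Ezh1, Hdac11 and Nrip1, which repress transcription, fell by 0.72, 0.70 and 0.94. Genes with a numbered zinc finger name (Zfp followed by digits) were grouped after values were seen: of 259 tested 187 were lower, 9 at least 2-fold, and 23 higher, and their median was −0.38 against −0.06 in KO cells. The share called lower was 72.2%, against 28.6% of all genes; under the same total 222 were lower and 13 higher, a share lower of 85.7% against 60.1% of all genes. Their median vehicle level was 12.7 scaled units. Of 19 clock genes 7 were higher and 7 lower (5 and 11 under the same total): Bhlhe40 rose by 1.42 ± 0.07, Per1 by 0.49 ± 0.07 and Arntl by 0.44 ± 0.05, and Dbp, a clock output, fell by 0.88.

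Interferon-stimulated genes were mostly called lower in WT cells, and their median was below 0 in KO cells as well. Of 32 tested 25 were lower, 3 at least 2-fold, and 2 higher, with a median of −0.51; under the same total 28 and 1. In KO cells the median of the same genes was −0.27. Ifit3b, an antiviral protein, fell from 14.1 to 24.3 (median 17.2) to 3.07 to 12.8 (median 6.96) scaled units in WT cells (−1.31 ± 0.24). Its log2 fold change in KO cells was −0.92 (adjusted p = 0.022 in limma), and the difference was not called (adjusted p = 0.377). Rtp4 fell by 1.10 in WT cells, against a log2 fold change of −0.96 in KO cells. Metallothioneins, which bind zinc and are induced by it, fell with the added zinc the same in all groups: Mt1 went from 6125 to 8966 (median 7539) to 3654 to 4640.4 (median 3931) scaled units (−0.91 ± 0.11) and Mt2 from 2275 to 3746 (median 2990.3) to 1349 to 1904 (median 1509) (−0.95 ± 0.12). Slc30a1, a zinc exporter that zinc also induces, fell from 39.8 to 25.5 (−0.62 ± 0.08), and Slc30a4 rose by 0.74 ± 0.05. Of 18 metallothionein and zinc transporter genes 5 were higher and 7 lower, and 2 and 12 under the same total. For comparison, 28.6% of all genes were called higher and 28.6% lower, and 60.1% lower under the same total.

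The effects were then set beside those in KO cells. Over all genes, the difference between the agonist effects in WT and KO cells was called for 4746 of 11557 (41.1%). Of the genes at least 2-fold higher in WT cells it was called for 405 of 416 (97.4%), and of those at least 2-fold lower for 99 of 107 (92.5%). These genes were chosen by their WT effect, which is part of that difference, so the shares describe the genes and do not test them. The KO values were measured separately: the genes at least 2-fold higher in WT cells had a median log2 fold change of −0.04 in KO cells, and 15 of them were called higher there and 15 lower (3.61% each). Over all genes, 539 (4.66%) were called higher in KO cells and 536 (4.64%) lower. Those at least 2-fold lower had a median of −0.22 in KO cells, and 20 of them (18.7%) were called lower there. Adh7, a retinol dehydrogenase, is one of the 20: its log2 fold change was −1.14 ± 0.12 in WT and −0.76 ± 0.12 in KO cells, and it was named after its values were seen. Cbr3, a carbonyl reductase, had −1.56 ± 0.11 and −0.57 ± 0.11. For Itpkc the KO value was 0.11 ± 0.10 (difference 4.05 ± 0.14, adjusted p = 9.02e-17 in limma), for Scnn1g −0.47 ± 0.19 (difference −0.88 ± 0.26, adjusted p = 0.00892) and for Mt1 −0.33 ± 0.11 (difference −0.58 ± 0.15, adjusted p = 0.00395). Of the 221 genes named here that were called in WT cells, the difference was not called for 13: Adh7, Aqp2, Arrb1, Btc, Ccl5, Foxo3, Ifit3b, Itpr3, Lrp2, Ndufb8, Ptges, Rtp4 and Scnn1b. Of these, Ccl5 (−0.75) and Ndufb8 (−0.27) were, like Adh7, Ifit3b and Rtp4, also called lower in KO cells.

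**Figure D5:**
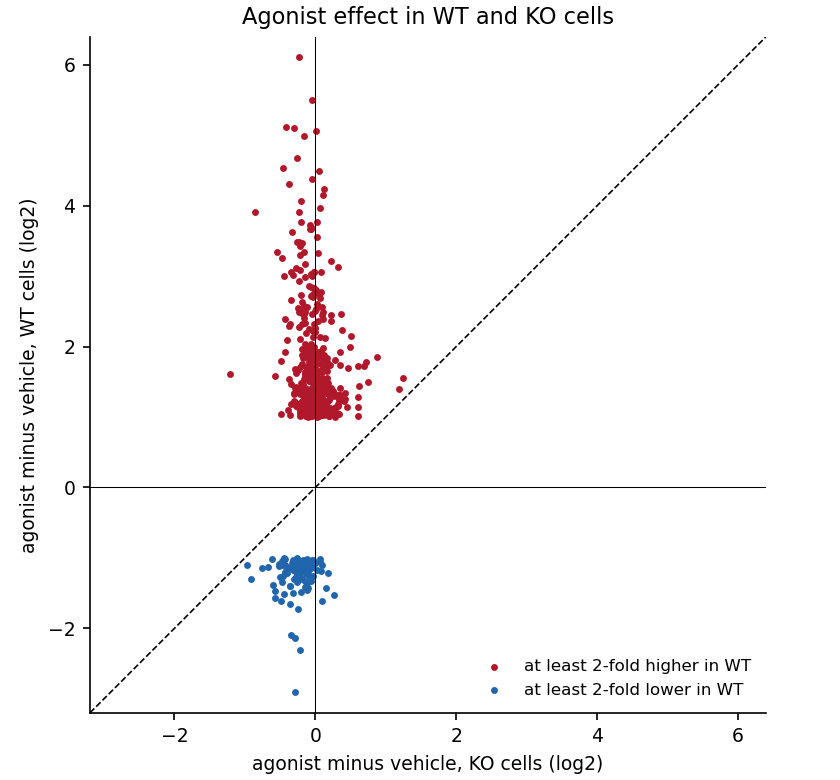
Agonist effect in WT cells against the agonist effect in KO cells, both on the log2 scale, for the 523 genes called at least 2-fold changed in WT cells; the dashed line marks equal effects. Rising genes lie along a KO effect near 0 (median −0.04), while falling genes are shifted to the left of 0 in KO cells as well (median −0.22).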

How the data were processed

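Poly(A) RNA of 24 libraries, 4 groups of 6, was sequenced by the authors. The submitters' processing notes name STAR 2.7.8a, DESeq, DESeq2 and the genome build GRCm39, without saying what each was used for. The deposited values are a signal: reads per gene divided by a library factor and by gene length. Each value times its gene length is a multiple of 0.1 in at least 99.53% of values per library, and dividing out the recovered factor (0.754 to 1.46) gave whole reads, within 0.05, for at least 99.65%. Recovered depth was 29.8 to 51.9 M reads per library. The counting rule and strand setting are not given in the sources used here, so reads of overlapping and antisense genes cannot be told apart.

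Values were multiplied by 92.1. Of 12224 rows, the 11557 that averaged at least 1 scaled unit were fitted with limma 3.58.1 in R 4.3.3 on log2(scaled units + 0.5), with 1 term per group, all 24 libraries in the fit (20 residual degrees of freedom), and trended, robust moderation. The contrasts took agonist against vehicle in WT and in KO cells and the difference of these effects, two-sided, with Benjamini-Hochberg adjustment over all rows. The procedure was tested on simulated data. Rows with joined (333) or repeated (393) names stayed in the fit but out of lists and naming. The rule for named genes also passed over predicted and clone-named genes.

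Members and lists were chosen with earlier results of these data known, so list counts are descriptions. Named genes are Gpr39 and Aqp2, the 20 steepest rises and 20 steepest falls among called, non-overlapping genes with a mean of at least 5 scaled units, the 10 largest rises and falls in units, and up to 6 called members of each list with the largest change. Relatives that complete a family, and genes marked as named after their values were seen, were added. A few genes and 1 list are not reported here. Promoter windows and genomic spans came from RefSeq (GRCm38.p6) by symbol. Alternatives tried were the pseudocount, the filter, 3 other scalings, the 12 WT libraries alone, plain moderation, a replicate block, voom on recovered reads and each WT library left out.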

Additional observations from a re-analysis of the deposited data

Results flagged for a closer look

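The groups checked, 460 in all, were each a named gene, or the summed signal, in the vehicle or the agonist libraries of WT cells. In 11 of them 1 library lay far from the other 5, by the gap to its nearest neighbour as a share of the group's whole range. Chance gives this in about 1 of 20 groups. The highest vehicle library was replicate 6 for Hsp90b1, at 683 scaled units (gap share 0.717), for Klf7, at 20.5 (0.636), and for Dusp8, at 14.1 (0.638). It was replicate 4 for Itgb5, at 236 (0.752), and Foxo4, at 48.3 (0.647), replicate 1 for Sprr2e, at 3.09 (0.707), and replicate 2 for Nppb, at 0.175, where the other 5 were at 0 (1.000). Among agonist libraries, replicate 3 was the highest for Tpm2, at 26.5 (0.848), and replicate 5 for Sesn2, at 202 (0.648). The lowest were replicate 4 for Tnf, at 8.38 (0.792), and replicate 2 for Evpl, at 31.4 (0.643). No call of these 11 genes changed when any WT library was left out.

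The agonist effect differed between WT and KO cells for 11 of 12 genes set by a rule, by the limma contrast of both effects. The 12 were Gpr39, Aqp2 and the steepest rises and falls named. Differences of other genes are given above, and 13 named genes called in WT cells had none called. The difference, WT minus KO on the log2 scale, was 6.36 for Cxcl2 (adjusted p = 2.25e-16), 5.55 for Lif (8.72e-18), 5.53 for Areg (2.88e-16), 5.40 for Cxcl1 (2.08e-16) and 5.06 for Il1a (2.26e-16). Among falling genes it was −2.62 for Txnip (adjusted p = 4.93e-12 in limma), −1.84 for Ackr3 (8.46e-08), −1.75 for Clec2d (1.97e-07), a C-type lectin gene, −1.48 for Arrdc3 (3.81e-07) and −1.31 for Arl4d (1.66e-06), a small GTPase gene. For Gpr39 it was 0.43 (adjusted p = 0.000191 in limma), but under the same total it was 0.16 and not called (adjusted p = 0.0923). These genes, other than Gpr39 and Aqp2, were picked for the size of their WT effect. Of the 12, Aqp2 was the gene whose difference was not called.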

How the results depend on the processing

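Of 229 named genes, 218 kept their direction and side of the threshold under all 23 alternatives that gave a value (218 genes had one with a mean of at least 5 scaled units). The count at least 2-fold lower, 107 as reported, was 165 with a pseudocount of 0.1, 45 with a pseudocount of 2, 269 with all libraries set to the same total and 172 with voom on the recovered reads. Setting the same total also gave 1433 genes higher and 6944 lower, and a Gpr39 difference between genotypes of 0.16 that was not called (adjusted p = 0.0923 in limma). It gave negative values for Hsph1 (−0.21), Mrtfa (−0.13) and Prkaca (−0.20), none of which was called as deposited, and so did quantile scaling for Hsph1 (−0.10) and Prkaca (−0.16). Arpc1a, Mrtfb, Scnn1a, Tgfa and Yap1 were called lower with the same total, and Itpr3 was no longer called. Under quantile scaling Arpc1a, Scnn1a, Tgfa and Yap1 were called lower, and Ccl5 and Scnn1b were no longer called, the latter with a pseudocount of 0.1 as well. The cause of these changes was not tested. With 1 library left out, 6141 to 6677 genes were called, 3065 to 3374 higher and 3076 to 3303 lower, with 403 to 433 and 99 to 127 at least 2-fold, and the log2 fold change was 0.41 to 0.47 for Gpr39 and −0.64 to −0.46 for Aqp2. In the 250 bases before the start alone, a window 50 bases shorter, the share over all genes tested was 4.27% for the AP-1 site, 2.89% for the cAMP response element, 4.41% for the NF-kB site, 8.54% for the E-box, 6.37% for the ETS site, 2.14% for the FOXO site, 5.94% for the TATA box and 36.9% for the CCAAT box.

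A replicate block, pairing libraries by number within genotype, gave 3312 genes higher and 3288 lower, 416 and 107 at least 2-fold, and changed no call of a named gene. The labels only number the replicates: same-numbered libraries deviated together with correlations of −0.28 to 0.49, above 0.1 in 3 of 6 pairs, and 2 of 6 matched best with their own number. Depth limits genes near 1 scaled unit, whose fold changes move with the pseudocount.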
